A study of Mus musculus with 8 samples.

Results

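The core circadian clock genes are the 10 genes Arntl (also called Bmal1), Clock, Per1, Per2, Per3, Cry1, Cry2, Nr1d1, Nr1d2 and Dbp, chosen by name among the 16593 gene symbols that the array's platform annotation holds. They have 17 probes on the array. Messenger RNA was measured with Illumina bead arrays in the dissected hypothalamus of male C57BL/6 background mice, 13 weeks of age. Of the 8 animals, 4 had the Bgn gene knocked out (Bgn_KO) and 4 were wild type (WT), with 1 array each. Bgn encodes biglycan, a small proteoglycan of the extracellular matrix. All animals were kept under a light-dark cycle with chow and water freely available, and each was killed at the stated age. The sources used here give neither the hour of dissection nor how the Bgn allele was made. Each value averages the suprachiasmatic nucleus, the light-entrained pacemaker of the brain, with all other hypothalamic cells. In such tissue a smaller number of cells and less RNA per cell cannot be told apart.

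The mammalian clock is a feedback loop of transcription. ARNTL and CLOCK form the positive limb: as a pair they bind E-box sequences and switch on the Per and Cry genes, whose proteins form the negative limb and return to block that pair. ARNTL and CLOCK also switch on Nr1d1 and Nr1d2, which encode the REV-ERB repressors of Arntl, and Dbp, a transcription factor that carries the rhythm to other genes through D-box sequences. In rhythmic tissues Arntl therefore peaks when Per2, Per3, Nr1d1 and Dbp are low, so that the hour at which an animal is killed bears on the levels of these rhythmic genes.

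Promoter sequences were available for 9 of the 10 genes, and 4 windows that hold sequences through which the loop is known to act are shown, since the values of these genes over the arrays are compared below. Each is the 250 bases before an annotated transcript start in RefSeq, build GRCm38.p6, read 5′ to 3′ on the strand of the gene, with motif matches in capitals. The Per3 window (chr4:151044666-151044915, minus strand) holds the D-box TTATGTAA at 2 places, the Per1 window (chr11:69098699-69098948, plus strand) the E-box CACGTG and the ROR motif (TGACCT), the Nr1d1 window (chr11:98775378-98775627, minus strand) the E-box variant AACGTG, and the Nr1d2 window (chr14:18239107-18239356, minus strand) the ROR motif AGGTCA, to which REV-ERB and ROR proteins bind.
Per3: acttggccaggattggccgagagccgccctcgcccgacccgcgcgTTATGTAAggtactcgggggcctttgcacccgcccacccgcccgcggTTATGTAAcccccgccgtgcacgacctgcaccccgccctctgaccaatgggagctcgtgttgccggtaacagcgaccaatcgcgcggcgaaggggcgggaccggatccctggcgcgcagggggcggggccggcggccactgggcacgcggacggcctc
Per1: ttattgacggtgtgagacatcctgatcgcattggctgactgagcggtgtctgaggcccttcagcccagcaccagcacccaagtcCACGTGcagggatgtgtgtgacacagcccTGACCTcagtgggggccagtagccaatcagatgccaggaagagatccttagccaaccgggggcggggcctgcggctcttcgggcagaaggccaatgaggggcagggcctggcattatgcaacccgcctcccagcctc
Nr1d1: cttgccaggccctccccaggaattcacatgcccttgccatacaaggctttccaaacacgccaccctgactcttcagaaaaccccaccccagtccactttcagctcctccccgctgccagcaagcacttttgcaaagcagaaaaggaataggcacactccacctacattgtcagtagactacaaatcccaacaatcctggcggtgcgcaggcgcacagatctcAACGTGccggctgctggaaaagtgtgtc
Nr1d2: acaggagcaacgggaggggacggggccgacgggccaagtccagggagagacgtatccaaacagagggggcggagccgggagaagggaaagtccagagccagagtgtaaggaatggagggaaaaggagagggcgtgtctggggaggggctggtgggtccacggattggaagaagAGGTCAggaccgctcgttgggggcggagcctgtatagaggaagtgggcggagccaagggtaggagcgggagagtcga
The last bases of the D-box matches of Per3 lie 198 and 151 bases before the transcript start, that of the Per1 E-box 161 bases before it and that of the Nr1d1 variant 23 bases before it. Over both strands, D-box letters (TTATGTAA or TTACGTAA) occur in windows of 1.10% of 27025 genes and in 1 of the 9 clock genes, Per3. E-box letters occur in 6.86% of genes and in 2 of the 9, Cry1 and Per1. The variant (CACGTT) occurs in 4.50% and in Cry1, Cry2 and Nr1d1. The ROR motif occurs in 15.8% and in Clock, Nr1d2 and Per1, and the cyclic AMP response element TGACGTCA in 1.77% and in 0 of the 9. The matches printed do not overlap each other. They describe letters in these windows and not binding.

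Of the 17 probes, 13 were tested because they lay above background (detection p under 0.05) on at least 4 of the 8 arrays, and 12 of those lay above background on all 8. Thus 9 genes were measured and 1, Cry1, was not: its only probe (ILMN_2618668) was above background on 0 arrays. The other untested probes were ILMN_2589603 and ILMN_2600964 of Clock, above background on 0 and 3 arrays, and ILMN_1258523 of Per2, on 0 arrays. Where a gene has several tested probes, the brightest stands for it here. Levels are log2 signals after background correction and quantile normalization, and levels of different genes cannot be set against each other because probes differ in brightness. Different probes of 1 gene varied together over the arrays for Per1 (r = 0.91, rho = 0.88), Per2 (r = 0.83, rho = 0.76) and Nr1d1 (r = 0.77, rho = 0.71), with exact permutation p of 0.00201, 0.0104 and 0.0282 for r (0.00804, 0.0208 and 0.0377 adjusted over 4 probe pairs) and 0.00724, 0.0368 and 0.0576 for rho. Without the 2 arrays farthest from the median r was 0.79, 0.63 and 0.50. The probes of Nr1d2 did not vary together past the test (r = 0.61, rho = 0.38, exact permutation p = 0.111 and 0.360, r = 0.03 without the 2 farthest arrays), and the dimmer of them, ILMN_2602387, was above background on 1 Bgn_KO and 3 WT arrays.

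Of the labels, that of WT replicate 1 goes against its Bgn level. The Bgn probe read 8.79 to 9.01 on the Bgn_KO arrays, 8.86 on the array labelled WT replicate 1 and 9.53 to 10.44 on the other WT arrays (log2 difference, Bgn_KO minus WT, -0.81, limma adjusted p = 0.390). Whether this probe lies within the deleted sequence is not given in these sources. Several differences of the clock genes and correlations among them that rest on this array are therefore given with and without it. Each array had 13820 to 14502 probes above background, and all 9 listed hypothalamic peptide genes were above background on all arrays. Markers of other tissue differed between arrays. The mean log2 signal of 2 measured pituitary genes (of 6 listed) was 8.53 on Bgn_KO replicate 1 and 8.32 on WT replicate 2. Elsewhere it was 4.54 to 5.70. That of the single measured cortical gene (of 5 listed) was 8.28 on Bgn_KO replicate 4 against 5.44 to 6.60. That of 2 muscle genes (of 5) was 11.61 on WT replicate 4 against 6.97 to 7.50. Array means of 4 meningeal fibroblast genes (of 6) ranged from 7.22 to 9.38. Those of 3 choroid plexus genes (of 5) ranged from 7.66 to 9.08. How much other tissue each dissection took in was not tested.

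Between the genotypes, 0 of the 13 clock probes passed the test (limma, Benjamini-Hochberg adjusted p under 0.05 over 14190 tested probes), where 0.507% of all tested probes did. Their adjusted p lay between 0.355 and 0.957. Of the 13, 2 had an unadjusted p under 0.05, 1 each of Nr1d1 and Nr1d2, and both were lower in Bgn_KO, as were 4.94% of all tested probes. That count depends on single arrays. It was 1, a probe of Nr1d1, without the array labelled WT replicate 1. It was 3 without Bgn_KO replicate 1 or without WT replicate 4, with 12 clock probes tested in each of these settings. Taking 1 probe per gene, 7 of 9 genes had a lower mean in Bgn_KO and 2 a higher one, with a median log2 difference of -0.08, beside a median of 0.01 over all tested probes, of which 47.2% were lower. The genes with lower means included the REV-ERB genes and Per3, and those with higher means were Arntl and Per1.

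**Figure D1:**
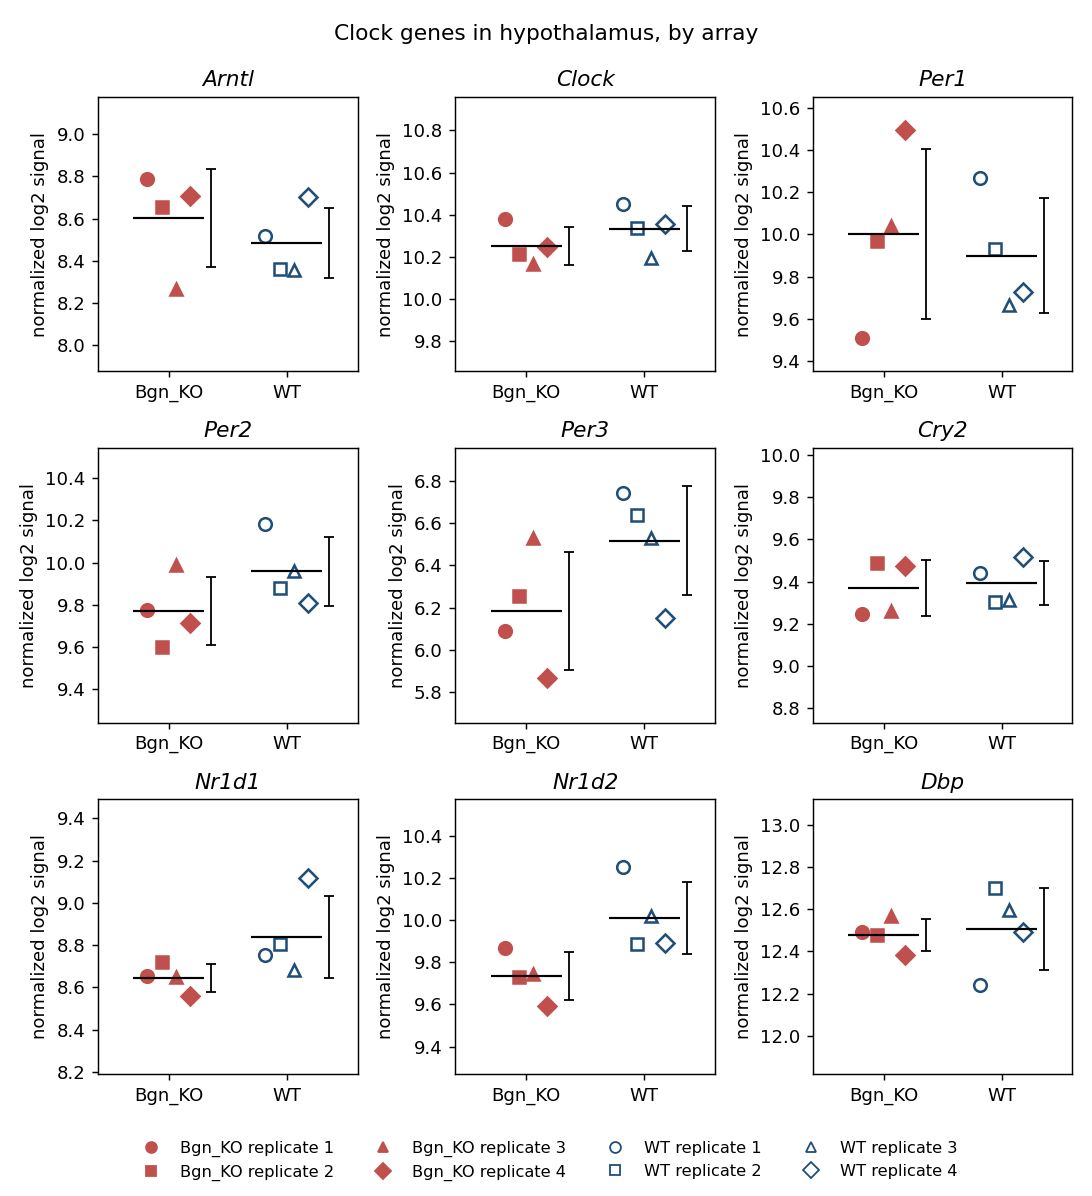
Normalized log2 signal (vertical axis, the same span of units in every panel) of the 9 measured clock genes on the 4 Bgn_KO arrays (filled) and 4 WT arrays (open), 1 symbol per replicate number. Lines are group means and bars their SD. Nr1d2 is the only gene here whose groups do not overlap (9.59 to 9.87 against 9.89 to 10.25), and WT replicate 1 has the highest Per2, Per3 and Nr1d2 and the lowest Dbp of all arrays.

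In the positive limb, Arntl (ILMN_2707510) read 8.79, 8.65, 8.27 and 8.71 on Bgn_KO replicates 1 to 4 and 8.52, 8.36, 8.36 and 8.70 on WT replicates 1 to 4. The groups overlapped throughout, and both contained an array near 8.7. The means were 8.60 ± 0.23 and 8.48 ± 0.16 (SD, n = 4 each), a log2 difference of 0.12 (95% interval -0.19 to 0.42, limma adjusted p = 0.820), which was 0.059 without Bgn_KO replicate 1 and 0.23 without Bgn_KO replicate 3. Clock (ILMN_2610973), the partner of ARNTL, read 10.38, 10.22, 10.17 and 10.25 in Bgn_KO and 10.45, 10.34, 10.19 and 10.36 in WT. It was the steadiest clock gene: 13.2% of tested probes had a smaller SD within the genotypes. Its log2 difference was -0.08 (95% interval -0.29 to 0.12, limma adjusted p = 0.813), and -0.045 without the array labelled WT replicate 1.

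In the negative limb, Per1, which besides its E-boxes is known to respond quickly to light, neuronal activity and glucocorticoids, was the most variable of the genes. Its brighter probe (ILMN_2813484) read 9.51, 9.97, 10.04 and 10.49 in Bgn_KO and 10.27, 9.93, 9.66 and 9.73 in WT. The Bgn_KO arrays thus held both the lowest and the highest value, and 87.9% of tested probes had a smaller SD within the genotypes. The log2 difference was 0.10 (95% interval -0.37 to 0.57, limma adjusted p = 0.908), and -0.06 without Bgn_KO replicate 4. The other probe, ILMN_2813487, differed by 0.24 (limma adjusted p = 0.666).

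Per2, the Per gene most needed for rhythms in mice, read 9.78, 9.60, 9.99 and 9.71 in Bgn_KO and 10.18, 9.88, 9.96 and 9.81 in WT (ILMN_2987862). The array labelled WT replicate 1 had the highest value, and the rest of the groups overlapped. The log2 difference was -0.19 (95% interval -0.45 to 0.08, limma adjusted p = 0.627), -0.11 without that array, and the other tested probe, ILMN_2987863, differed by -0.05 (0.09 without that array). Per3, which in mice modulates the clock more than it drives it, read 6.09, 6.25, 6.53 and 5.87 in Bgn_KO and 6.74, 6.64, 6.53 and 6.15 in WT (ILMN_1257393). Bgn_KO replicate 3 matched the WT arrays and WT replicate 4 lay among the Bgn_KO arrays. The log2 difference was -0.33 (95% interval -0.71 to 0.05, limma adjusted p = 0.555; exact permutation p = 0.114, two-sided, where 4 against 4 arrays can give no p below 0.0286). Without background correction the difference of this dim probe was -0.12. Leaving out each array in turn gave differences between -0.45 and -0.23. Cry2, a light-independent repressor of the ARNTL and CLOCK pair in mammals, read 9.25, 9.49, 9.26 and 9.47 in Bgn_KO and 9.44, 9.30, 9.31 and 9.52 in WT (ILMN_2665681). These values had nearly the same mean in both groups, with a log2 difference of -0.03 (95% interval -0.25 to 0.20, limma adjusted p = 0.956).

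Of the 13 probes, 1 of each REV-ERB gene had the smallest p, for Nr1d1 the dimmer of its probes. Nr1d1, which encodes REV-ERB alpha, read 7.52, 7.18, 7.32 and 7.50 in Bgn_KO and 7.90, 7.66, 7.53 and 8.17 in WT with its dimmer probe (ILMN_2749669), so that the groups did not overlap, although the nearest arrays were 7.52 and 7.53. The log2 difference was -0.44 (SE 0.15, 95% interval -0.77 to -0.10, exact permutation p = 0.0286, limma adjusted p = 0.355). Its brighter probe (ILMN_1229091) read 8.65, 8.72, 8.65 and 8.56 in Bgn_KO and 8.75, 8.81, 8.68 and 9.12 in WT. The groups overlapped there, with a log2 difference of -0.19 (SE 0.11, limma adjusted p = 0.586). Both probes were highest on WT replicate 4, the array with the highest mean of the 2 measured muscle genes. Without that array the brighter probe differed by -0.10 (limma adjusted p = 0.847) and the dimmer by -0.32 (limma adjusted p = 0.596). A relation of Nr1d1 to the muscle genes was not tested.

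Nr1d2, which encodes REV-ERB beta, read 9.87, 9.73, 9.74 and 9.59 in Bgn_KO and 10.25, 9.89, 10.02 and 9.89 in WT (ILMN_2798993). The groups did not overlap, by a narrow margin between Bgn_KO replicate 1 and WT replicates 2 and 4. The log2 difference was -0.28 (SE 0.11, 95% interval -0.52 to -0.03, exact permutation p = 0.0286, limma adjusted p = 0.430), and -0.20 without the array labelled WT replicate 1. The dim other probe, ILMN_2602387, differed by -0.30 (limma adjusted p = 0.704). In all, the groups did not overlap, with Bgn_KO lower, for 2 of the 13 clock probes, where 2.95% of all tested probes did so. The groups also did not overlap in the mean of the oligodendrocyte markers, where 5 of 5 measured genes were lower in Bgn_KO (median log2 difference -0.40, array means 11.46 to 11.70 against 11.77 to 12.18). Their part in the values of Nr1d1 and Nr1d2 was not tested.

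Dbp, the D-box activator, read 12.49, 12.48, 12.57 and 12.38 in Bgn_KO and 12.24, 12.70, 12.59 and 12.49 in WT (ILMN_2616226). Among tested probes 33.8% had a smaller SD within the genotypes. The WT arrays held both the lowest and the highest value, with the lowest on the array labelled WT replicate 1. The log2 difference was -0.03 (95% interval -0.28 to 0.22, limma adjusted p = 0.957), and -0.12 without that array.

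**Figure D2:**
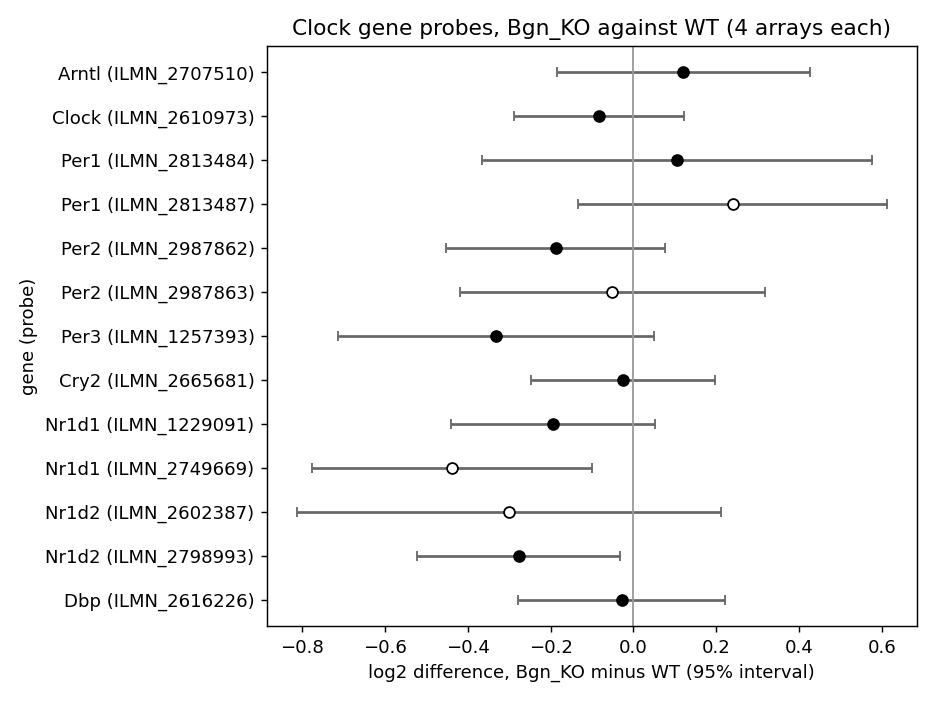
Log2 difference, Bgn_KO minus WT (horizontal axis), of the 13 tested clock probes with its 95% interval from limma, for 4 arrays per group. Filled points are the probes that stand for a gene and open points the others; the intervals of ILMN_2749669 of Nr1d1 (-0.77 to -0.10) and ILMN_2798993 of Nr1d2 (-0.52 to -0.03) do not include 0, and 0 of the 13 passed after adjustment.

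Other genes of the clock and its outputs gave 0 of 15 measured genes past the test in either direction, of 22 listed (9 higher and 6 lower in Bgn_KO, median log2 difference 0.05). Those with the smallest p were Fbxl21, a ubiquitin ligase subunit that acts on CRY proteins (0.29, SE 0.13), Csnk1d, the kinase that marks PER proteins for decay (0.23, SE 0.11), and Wdr5, a chromatin factor found with PER proteins (0.31, SE 0.16), with limma adjusted p between 0.518 and 0.571. Of genes known from the suprachiasmatic nucleus, 10 of 12 were measured and 0 passed (4 higher, 6 lower). The smallest p was that of Grp, which encodes gastrin-releasing peptide and had a log2 difference of -0.59 (SE 0.16, limma adjusted p = 0.213), followed by the transcription factor Lhx1 (0.34, SE 0.25) and Prok2, an output peptide of the nucleus (0.36, SE 0.28). Body temperature is another cue for peripheral clocks. A list of temperature-responsive and chaperone genes also gave 0 of 8 measured genes past the test (4 higher, 4 lower). Among them were Hspa5, a chaperone gene of the endoplasmic reticulum (-0.43), Hspa8 (0.13) and Cirbp (-0.17).

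Whether genes of the opposed limbs varied in opposite ways over the animals was examined with the 36 pairs among the 9 measured genes. None of the 36 passed after adjustment (two-sided exact permutation test of Pearson's r over 8 arrays, Benjamini-Hochberg over the 36 pairs, smallest adjusted p = 0.344, and 0.500 for Spearman's rho), and 4 had an unadjusted p under 0.05. One pair had r of -0.7 or below, as did 3.35% of the pairs of all measured genes, and 3 pairs had r of 0.7 or above, as did 3.53%. The pair with the strongest opposition was Arntl with Per3, a gene of each limb. Those with the highest r, singled out after their values were seen, were Per2 with Per3, Per2 with Nr1d2 and Per3 with Nr1d2.

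**Figure D3:**
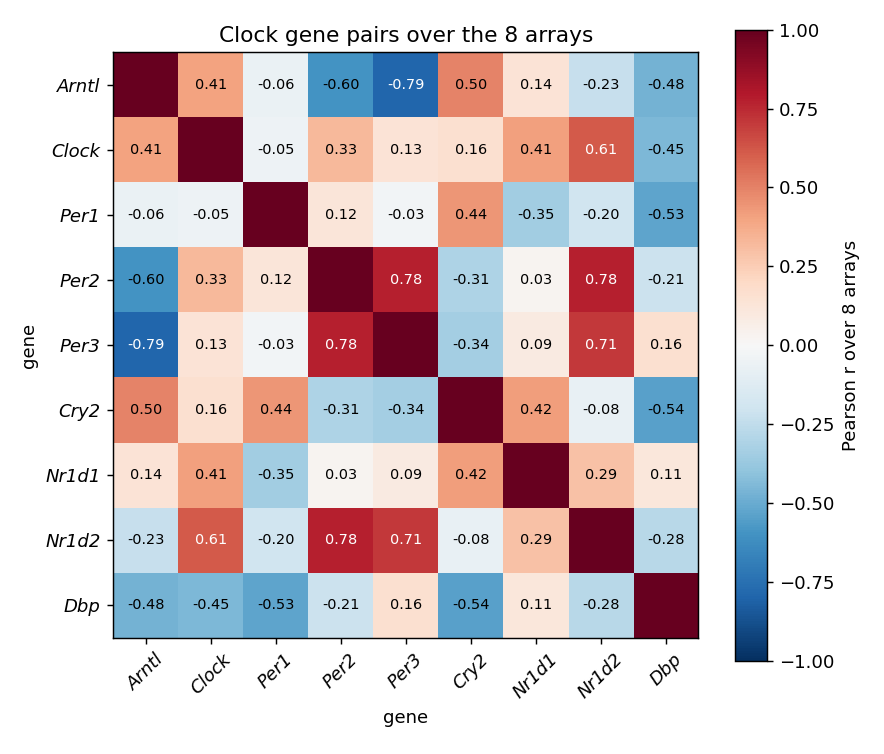
Pearson r over the 8 arrays between the normalized log2 signals of every pair of the 9 measured clock genes (both axes list the genes, colour and printed number give r). Arntl is at -0.79 with Per3 and -0.60 with Per2, while Per2, Per3 and Nr1d2 have r between 0.71 and 0.78 with each other.

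Arntl and Per3 had r = -0.79 (exact permutation p = 0.0286, adjusted p = 0.344) and Spearman's rho = -0.74 (exact permutation p = 0.0458). The r was -0.84 without the 2 arrays with the most extreme Arntl. It was -0.78 with the genotype means subtracted (exact permutation within genotypes, p = 0.0503, adjusted p = 0.605). On the arrays Bgn_KO replicates 1, 2 and 4 and WT replicate 4, Arntl was at 8.65 or above and Per3 at 6.25 or below. On Bgn_KO replicate 3 and WT replicates 1, 2 and 3, Arntl was at 8.52 or below and Per3 at 6.53 or above. These sets of 4 arrays were formed from the values themselves. Each holds both genotypes, though most Bgn_KO arrays are in the first and most WT arrays in the second. A correlation within 4 arrays was not computed, so whether the relation holds within the sets was not tested. Leaving out each array in turn gave r between -0.89 and -0.75, with no adjusted p under 0.05.

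Arntl with Per2 had r = -0.60 (rho = -0.69, exact permutation p = 0.120 and 0.0694, adjusted p = 0.723 for r) and with Dbp -0.48 (rho = -0.55, exact permutation p = 0.241 and 0.171, adjusted p = 0.802 for r). The r of Arntl was -0.06 with Per1, -0.23 with Nr1d2 and 0.14 with Nr1d1, the REV-ERB gene whose protein represses it. Clock, whose RNA is known to vary little over the day, had positive r with 3 of 4 negative limb genes, between -0.05 and 0.33 over the 4, and r = 0.41 with Arntl. Without the array labelled WT replicate 1, its r was negative with 3 of the 4, between -0.42 and 0.03. Over all 8 pairs of a positive with a negative limb gene, 4 had negative and 4 positive r (median 0.04). This count rests on single arrays: without the array labelled WT replicate 1 it was 6 negative and 2 positive (median -0.25), and without Bgn_KO replicate 1 or without WT replicate 4 it was 2 negative and 6 positive (medians 0.29 and 0.04). The mean deviation of Arntl and Clock against that of Per1, Per2, Per3 and Cry2 had r = -0.35 over the 8 arrays, given as a description.

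Per2 and Per3 had r = 0.78 (rho = 0.76, exact permutation p = 0.0207 and 0.0368, adjusted p = 0.344 for r) and 0.89 without the 2 arrays farthest in Per2. With the genotype means subtracted it was 0.68. With the other probe of Per2, r was 0.64. Per2 with Nr1d2 had r = 0.78 (rho = 0.71, exact permutation p = 0.0234 and 0.0576, adjusted p = 0.344 for r) and Per3 with Nr1d2 0.71 (rho = 0.69, exact permutation p = 0.0447 and 0.0694, adjusted p = 0.403 for r). Without the 2 farthest arrays, WT replicate 1 among them, those values were 0.47 and 0.16, so both rest on these arrays. With the genotype means subtracted they were 0.66 and 0.50. Per1 had r of 0.12 with Per2 and -0.03 with Per3. Both values rest on single arrays, which moved them in opposite directions. Without Bgn_KO replicate 4, which had the highest Per1 and the lowest Per3, they were 0.50 and 0.72. Without the array labelled WT replicate 1 they were -0.26 and -0.31. Dbp had r of -0.53 with Per1, -0.21 with Per2, 0.16 with Per3, 0.11 with Nr1d1 and -0.28 with Nr1d2. Without the array labelled WT replicate 1 these were -0.39, 0.65, 0.94, 0.19 and 0.65, so the signs with Per2 and Nr1d2 turned.

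The array labelled WT replicate 1 moved several of these values. It had the highest Per2, Per3 and Nr1d2 of all 8 arrays together with the lowest Dbp. Without it, r was 0.94 for Per3 with Dbp, -0.89 for Arntl with Per3, -0.79 for Arntl with Per2, -0.76 for Arntl with Dbp and -0.85 for Per1 with Nr1d2 (-0.20 with it), over 7 arrays, and the r of the limb means was -0.80. None of the 36 pairs passed after adjustment there either (these 5 pairs had an unadjusted p under 0.05, smallest adjusted p = 0.0786). The pairs with the highest r over 8 arrays were lower there. Their r was 0.68 for Per2 with Per3, 0.52 for Per2 with Nr1d2 and 0.56 for Per3 with Nr1d2. Leaving out Bgn_KO replicate 1 instead brought Arntl with Cry2 from 0.50 to 0.98 (smallest adjusted p = 0.0571) and the r of the limb means to -0.03.

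**Figure D4:**
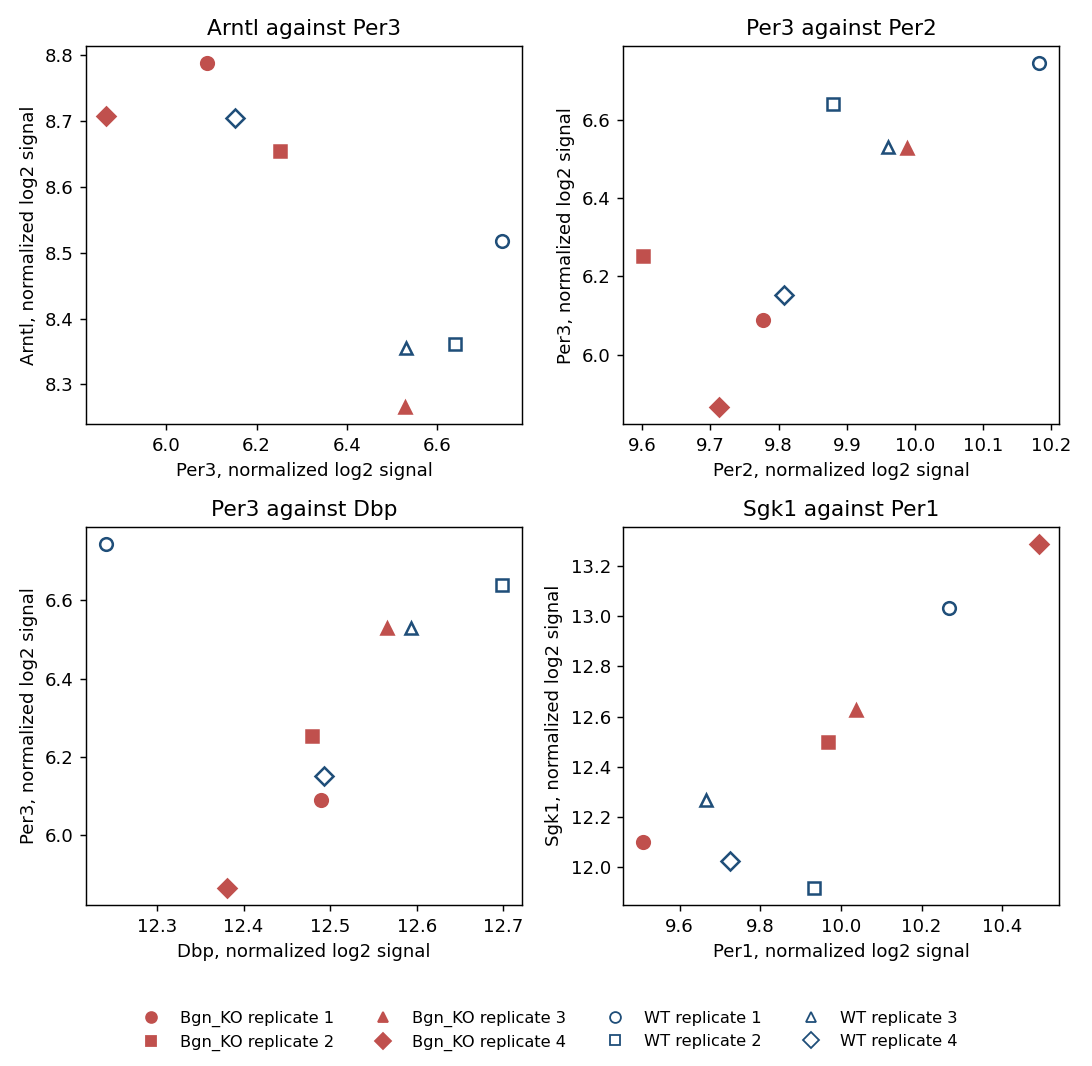
Normalized log2 signal of 4 gene pairs, 1 point per array (filled, Bgn_KO; open, WT; symbol shape, replicate number). The values give r = -0.79 for Arntl with Per3, 0.78 for Per3 with Per2, 0.16 for Per3 with Dbp (0.94 without WT replicate 1, which has the highest Per3 and the lowest Dbp) and 0.87 for Sgk1 with Per1.

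Since Per1 is also an early response gene, it was set against genes induced by neuronal activity and by glucocorticoids (17 measured genes in all, a family chosen after the clock values had been seen). The largest r was with Sgk1, a kinase gene that glucocorticoids induce: it read 12.10, 12.50, 12.63 and 13.29 in Bgn_KO and 13.03, 11.92, 12.27 and 12.03 in WT, highest on the same arrays as Per1 (Bgn_KO replicate 4 and WT replicate 1). The r was 0.87 (exact permutation p = 0.00506, adjusted p = 0.0860 over the 17) and rho 0.79 (exact permutation p = 0.0279, adjusted p = 0.312). Without the 2 arrays farthest in Per1, Bgn_KO replicates 1 and 4, r was 0.78. That value still includes the array labelled WT replicate 1, and r without that array is not given. None of the 17 passed after adjustment. Fosb (r = 0.72) and Nfkbia (r = 0.71) followed, both with an adjusted p of 0.247 in the exact permutation test.

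Between the genotypes, the activity-induced genes were higher in Bgn_KO for 8 of 8 measured genes of 11, with 0 past the limma test and 4 with an unadjusted p under 0.05, where 10.2% of all tested probes had one in either direction. The array means of the list were 8.95 to 9.28 in Bgn_KO and 7.94 to 8.91 in WT, without overlap, and Egr1 (log2 difference 0.82, limma adjusted p = 0.178), Junb (0.64) and Egr2 (0.64), all transcription factors, had the smallest p. Per1, as given above, differed by 0.10. Glucocorticoid-induced genes were higher for 4 and lower for 5 of 9 measured genes of 10, with 0 past the test and 2 with an unadjusted p under 0.05. Those with the smallest p were Ddit4 (0.45), Nfkbia (0.43) and Fkbp5 (-0.55), with limma adjusted p of 0.370 to 0.527.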

How the data were processed

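Messenger RNA of 8 hypothalami (4 Bgn_KO, 4 WT) was measured on Illumina arrays of 25697 probes. The authors deposited signal intensities that were not normalized, per the file name, with a detection p-value per probe and array that the authors deposited beside each signal. The scanner software and genome build are not given in the sources used here. Processed intensities in linear units, also deposited, served as an alternative; the submitters' processing notes name lumi 2.10.0 and R 2.15.0.

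From the deposited signals, a normexp background, with parameters set by the detection p-values, was subtracted (offset 16) in limma 3.58.1 and R 4.3.3. Arrays were then quantile normalized on the linear scale, and log2 was taken afterwards. Probes with detection p under 0.05 on at least 4 arrays were fitted, 14190 in all, with Benjamini-Hochberg adjustment over them. Of the probes, 23978 carry 1 gene symbol, 0 several and 1719 are not listed. The fit and the correlation test were tested on simulated data. Correlations were tested by exact permutation over arrays with Python 3.11.15. The samples are separate animals per the series' design text. The precision is limited by the number of arrays: the median SE of a log2 difference was 0.13. Slide and scan date are not given in the sources used here, so no batch could be examined.

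The members, lists and tests were chosen with earlier results of these data known. All 10 members are named, each other list gives up to 3 genes with the smallest p, and Sgk1, Fosb, Nfkbia as correlates and the pair of Arntl with Cry2 were singled out after their values were seen, and the counts of positive and negative r with arrays left out were added after seeing the data. Alternatives covered the filter, background correction, scaling, array weights, replicate number as a block, each array left out, both arrays numbered 4 left out, probe averaging, rank correlation and subtracted genotype means.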

Additional observations from a re-analysis of the deposited data

How the results depend on the processing

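With 4 arrays per group, differences of the size seen for Nr1d1 and Nr1d2 were not resolved after adjustment over 14190 probes, and 36 pairs over 8 arrays leave wide error on each r. The count of clock probes past 0.05 was 0 under all 16 alternatives run. The count over all probes was 72, and 47 among probes detected at 0.01 on all arrays, 116 with array weights, 35 without both arrays numbered 4, 26 with the replicate block and 42 to 69 with each array left out in turn. The sources used here give no pairing of animals by replicate number. Deviations of same-numbered arrays correlated between -0.19 and 0.10, and 1 of 4 Bgn_KO arrays was most like the WT array of its own number. These values cannot show whether same-numbered animals were paired. A correlation with replicate means removed was not run because 4 independent values would remain. The count of pairs past 0.05 was 0 and became 1 with the mean over the probes of a gene (Clock with Nr1d2, r = 0.93, adjusted p = 0.0330). That mean takes in the dim Nr1d2 probe ILMN_2602387, above background on 4 arrays, whose r with Clock was 0.96, against 0.61 for the brighter probe. The r of the limb means, -0.35, was between -0.80 and -0.028 with each array left out, the extremes being without WT replicate 1 and without Bgn_KO replicate 1.

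Among the single values, 201 of 211 log2 differences and 203 of 221 correlations kept their sign and their side of the threshold. With each array left out the difference of Cry2 ranged from -0.066 to 0.016, of Per1 from -0.059 to 0.27, of Dbp from -0.12 to 0.037 and of Per2 probe ILMN_2987863 from -0.15 to 0.090. The r ranged for Arntl with Per1 from -0.42 to 0.29 and with Nr1d1 from -0.38 to 0.34, for Dbp with Per2 from -0.37 to 0.65, with Per3 from -0.092 to 0.94, with Nr1d1 from -0.035 to 0.25 and with Nr1d2 from -0.60 to 0.65, and for Per1 with Per2 from -0.26 to 0.50. Without both arrays numbered 4 the sign turned for Per1 (-0.12), Dbp (0.0022), Arntl with Nr1d1 (-0.13) and Dbp with Per3 (-0.11). It turned with probes averaged for Arntl with Nr1d2 (0.23), Arntl with Per1 (0.090) and Dbp with Nr1d1 (-0.12), with genotype means subtracted for Arntl with Nr1d2 (0.019), and by rank for Arntl with Nr1d1 (-0.071), Dbp with Per2 (0.21) and Dbp with Nr1d2 (0.17).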

Other observations

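The genes whose values were most like those of Arntl and Dbp over the 8 arrays, with genotype means subtracted, are given as a description among 9782 genes. For Arntl these were the neural adhesion protein gene Cntn3 (r = 0.96), the interferon gene Ifna1 (0.93), Ugp2, an enzyme of glycogen synthesis (0.93), the sterol enzyme gene Hsd17b7 (0.93) and Rapsn, which clusters acetylcholine receptors at muscle synapses (0.92). For Dbp they were the transcription factor Sall1 (0.98), Rhbdd2 (0.98), Tafa5 (0.98), the axon guidance gene Sema3f (0.98) and P4hb, a protein disulfide isomerase (0.98). The 10 clock genes themselves were left out of this ranking. Dbp had 111 genes at r of 0.9 or above (1.13% of the others), Nr1d2 89 and Per3 83, against 16 for Arntl, 19 for Clock and 23 for Nr1d1. At r of -0.9 or below the counts were 55 for Dbp, 56 for Nr1d2, 26 for Per3, 21 for Arntl, 19 for Clock and 27 for Nr1d1.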
